A study of Mus musculus with 3 samples.

Results

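Collagens and other core proteins of the extracellular matrix were followed through the wall of the mouse distal colon, intact and 2 days after wounding. They were taken as a fixed list of gene symbols by family and role, 40 of the 32285 genes in the count matrices. The list holds 6 fibrillar collagen genes, 12 basement membrane genes and 22 other genes of the core matrix: network and fibril-associated collagens, adhesive proteins, proteoglycans and elastic fibre proteins. All 40 had at least 50 UMIs (unique molecular identifiers, each counting 1 captured RNA molecule) in both library comparisons.

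Fibrillar collagens are secreted as triple-helical chains that assemble into the tension-bearing fibrils of the submucosa and lamina propria. Collagen IV, laminins, nidogens and perlecan form the basement membrane, the thin sheet under epithelium and around vessels, nerve and muscle cells. Fibronectin, tenascin-C and other adhesive proteins are laid down early in healing wounds, and fibroblasts, smooth muscle cells, endothelium and macrophages are known sources of these proteins.

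Expression was measured with Visium, which captures polyadenylated RNA from a tissue section on an array of barcoded spots, each covering several cells. There were 3 libraries of fresh-frozen distal colon cut at 10 µm: intact colon of Hgfac wild-type (WT) mice, colon of Hgfac WT mice with day 2 wounds, and colon with day 2 wounds of mice labelled Hgfac knockout (KO). Hgfac encodes the secreted protease that activates hepatocyte growth factor, and no intact KO library entered the comparisons. The labels give 3 biological replicates for each library but tie no spot to an animal. The mice's age and strain, the cells that lack Hgfac and the part of the gene deleted are not stated in the labels used here.

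Each library was therefore 1 sample, no test between groups was possible, and capture area and group cannot be told apart. The libraries held 502 to 640 spots under tissue and 8180099 to 11306771 UMIs. Each section fell into 3 separate pieces of tissue, numbered here, whose values show the spread within a library and were not used as replicates. Hgfac itself was at 76.6 CPM, a count scaled to the total of its library, before wounding, at 94.8 in WT wound and at 49 in KO wound; a 3′ count outside a deleted part checks no knockout. All 12 epithelial and all 10 smooth muscle markers were found in each library, and the smooth muscle list summed to 11523 CPM in WT intact and to 8352 and 6787 in the WT and KO wound libraries. The 12-gene fibroblast list, which holds no member, summed to 2372, 2725 and 2676 CPM, and the 8-gene macrophage list to 702, 1368 and 1783. Fewer cells of a type and less RNA per cell cannot be told apart in these counts.

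Sequences at the gene starts are shown for a pair of fibrillar genes that were both over 2-fold higher in the wounded WT colon and for the collagen IV pair whose ends overlap head to head. The first pair are the 250 bases before the annotated starts of Col1a2 (chr6:4505368-4505617, plus strand) and Col3a1 (chr1:45311288-45311537, plus strand). Capitals mark the letters TATAAA or CCAAT or GGGCGG, searched on both strands. The last line is the stretch that holds the starts of both Col4a1 and Col4a2 in the promoter table (chr8:11312801-11312830, plus strand). Capitals mark the 22 bases from the start of Col4a2 on the plus strand to the start of Col4a1 on the minus strand, which lie inside both genes. Sequences are from RefSeq on GRCm38.p6.
Col1a2: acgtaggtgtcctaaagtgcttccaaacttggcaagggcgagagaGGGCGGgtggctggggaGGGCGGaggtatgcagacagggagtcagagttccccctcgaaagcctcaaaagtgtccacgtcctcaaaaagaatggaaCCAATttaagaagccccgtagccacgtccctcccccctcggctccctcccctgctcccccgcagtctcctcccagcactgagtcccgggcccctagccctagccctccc
Col3a1: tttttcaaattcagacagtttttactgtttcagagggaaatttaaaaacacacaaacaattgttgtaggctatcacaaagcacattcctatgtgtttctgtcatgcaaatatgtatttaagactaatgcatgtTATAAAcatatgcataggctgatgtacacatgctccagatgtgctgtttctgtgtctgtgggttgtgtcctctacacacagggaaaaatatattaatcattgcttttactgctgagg
Col4a1 and Col4a2: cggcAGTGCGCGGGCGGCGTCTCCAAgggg

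The Col1a2 stretch held 1 CCAAT and 2 GGGCGG and no TATAAA, and the Col3a1 stretch held 1 TATAAA and neither of the others. Of the 40 genes, 28 had an entry in the promoter table. In windows of 250 bases before to 50 after the start, TATAAA was found in 4 of these 28 (Col3a1, Ogn, Postn and Tnc), CCAAT in 12 and GGGCGG in 21. The 28 genes had 34 promoters, and a gene was counted if any of its promoters held the letters. The shares over all 32851 promoters of that length were 13.6%, 37.4% and 35.7%. They count single promoters and not genes, so the units differ. A match to such short letters is a description and not a binding site.

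WT wound was compared with WT intact to ask which matrix genes were higher in colon 2 days after wounding. The UMIs of the 40 genes summed to 5043 CPM in WT intact and 9584 CPM in WT wound, a ratio of 1.9 with a 95% counting interval of 1.88 to 1.92. The 3 intact pieces summed to 4761, 4319 and 6076 CPM and the 3 WT wound pieces to 11235, 8758 and 8505, with no overlap. Col1a1, Col1a2, Col3a1, Col5a1, Col5a2, Col6a3, Col8a1, Sparc and Mgp were at least 2-fold higher, 9 of the 40. Of the 12402 genes that reached 50 UMIs across the pair of libraries, 3.29% were. None was at or below 0.5-fold, where 3.08% of all genes were. The ratio was above 1 for 39 of the 40, and for 61% of all genes. Its median over the 40 was 1.73, or 0.79 on the log2 scale, against 0.09 for all genes. In 26 of the 40 every WT wound piece was above every intact piece, and 15.6% of all genes had that order. The count of 9 became 18 without intact piece 3 and 14 without WT wound piece 3. The range over single pieces left out was 6 to 18. Intervals here and below cover counting error only.

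**Figure D1:**
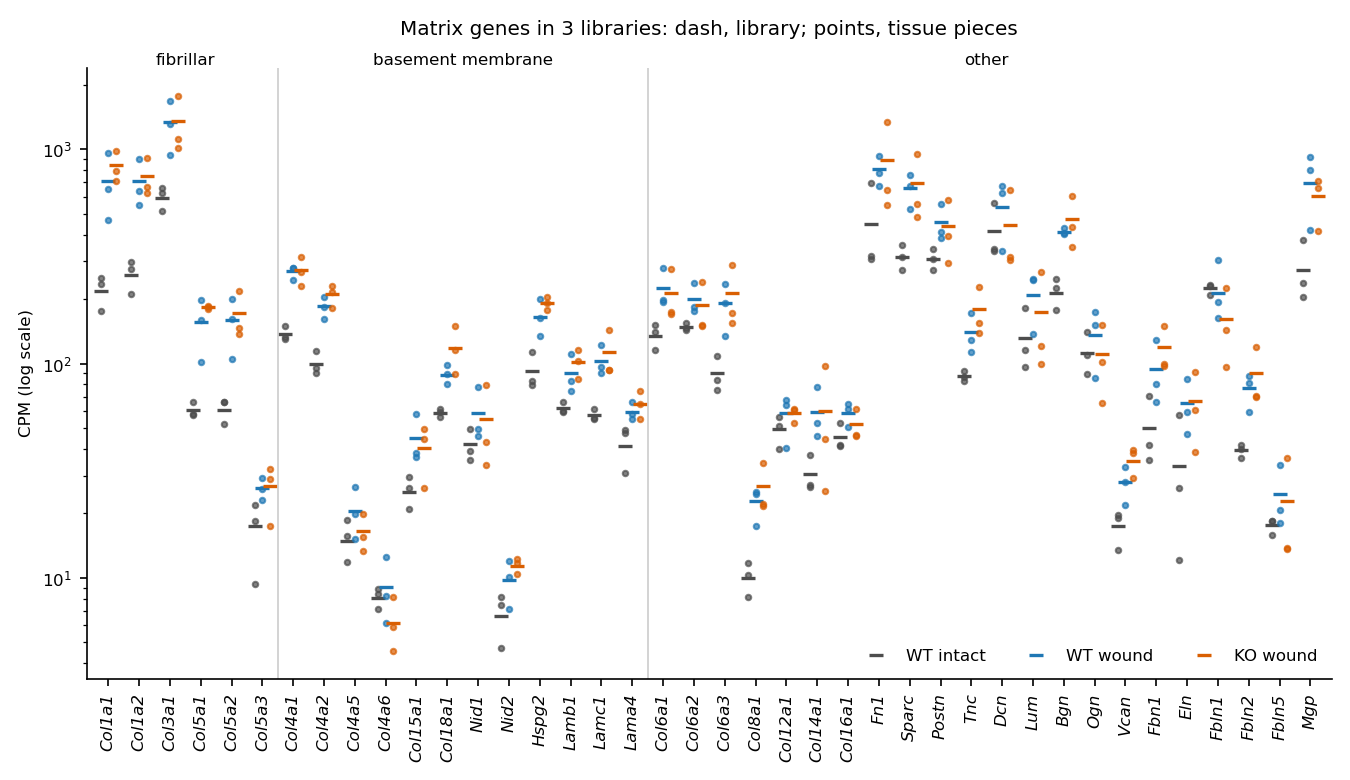
Level of each of the 40 genes in CPM (log axis), with a dash for each of the 3 libraries and points for its 3 tissue pieces. The points of Col1a1, Col1a2 and Col3a1 do not overlap between WT intact and WT wound, and those of WT wound and KO wound overlap for each gene.

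The fibrillar collagen genes stood highest by ratio among the 3 groups, with 5 of 6 at least 2-fold higher, a median ratio of 2.62, and all 6 with their pieces apart. Their sum was 1209 CPM in WT intact and 3107 in WT wound, which is 24% and 32.4% of the UMIs of the 40 genes. Col1a1 (ENSMUSG00000001506; GRCm38 chromosome 11, 94936224 to 94953042), the alpha 1 chain of type I collagen, had 217 CPM in WT intact, with 234, 176 and 250 in its pieces. In WT wound it had 712 CPM, with 959, 651 and 470 in the pieces, all above the intact pieces. The ratio of 3.28 (3.12 to 3.46) was the highest of the 40 and stayed between 2.64 and 3.71 as single pieces were left out. Col1a2, its partner chain, went from 259 to 710 CPM, a ratio of 2.75 (2.62 to 2.88). Col3a1 (chromosome 1, 45311538 to 45349706), the single chain of type III collagen, had 628, 517 and 659 CPM in the intact pieces and 1680, 1313 and 941 in the WT wound pieces, a library ratio of 2.25 (2.18 to 2.33). Its neighbour on the chromosome is Col5a2 (45374331 to 45503282), a chain of type V collagen, which sets fibril diameter. Col5a2 had 60.4 CPM in WT intact and 160 in WT wound, 2.64-fold, and the other type V chain Col5a1 had 60.5 and 157, 2.59-fold. Col5a3, at 17.5 and 26.3 CPM, was the exception below 2-fold, at 1.5 (1.23 to 1.85).

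None of the 12 basement membrane genes reached 2-fold, and their median ratio was 1.49. Their sum was 645 CPM in WT intact against 1102 in WT wound, and 8 of the 12 had their pieces apart. Col4a1 and Col4a2, the common chains of collagen IV that share the start region printed above, had nearly the same ratio. Col4a1 had 133, 130 and 149 CPM in the intact pieces and 280, 278 and 245 in the WT wound pieces, 1.97-fold (1.84 to 2.11) over the libraries. Col4a2 had 100 and 185 CPM, 1.85-fold (1.7 to 2). The minor collagen IV chains Col4a5 and Col4a6, whose starts lie 1343 bases apart on the X chromosome, showed smaller ratios with overlapping pieces. Col4a5 had 14.9 and 20.6 CPM, and Col4a6 had 8.07 and 9.02, a ratio of 1.12 whose interval of 0.812 to 1.55 includes 1.

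The laminin chain genes Lamc1, Lamb1 and Lama4, which encode the gamma 1, beta 1 and alpha 4 chains, had ratios of 1.81, 1.45 and 1.43, each with its pieces apart. Hspg2, the gene for the heparan sulfate proteoglycan perlecan, had 91.8 CPM in WT intact and 164 in WT wound, 1.78-fold (1.64 to 1.94). Col15a1 and Col18a1, basement membrane collagens that carry heparan or chondroitin sulfate chains, had ratios of 1.79 and 1.5. The nidogen genes Nid1 and Nid2, linkers between laminin and collagen IV, had ratios of 1.39 and 1.47, and their pieces overlapped.

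Of the 22 other genes, 4 were at least 2-fold higher, the median ratio was 1.65, and 12 had their pieces apart. Col6a3, the large chain of the beaded-filament collagen VI, had 75.2, 83.4 and 108 CPM in the intact pieces and 235, 191 and 135 in the WT wound pieces, 2.13-fold (1.96 to 2.32). The other collagen VI chains Col6a1 and Col6a2, neighbours on chromosome 10, had lower ratios of 1.68 and 1.36. Col8a1, a short-chain network collagen of vessel walls, had 10 CPM in WT intact and 22.8 in WT wound, 2.28-fold (1.77 to 2.96). Among the collagens that sit on fibril surfaces, Col14a1 had a ratio of 1.94 with its pieces apart. Col16a1 at 1.3 and Col12a1 at 1.18 had overlapping pieces.

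Fn1 encodes fibronectin, the adhesive glycoprotein of provisional wound matrix. It had 318, 309 and 698 CPM in the intact pieces and 777, 935 and 676 in the WT wound pieces. Intact piece 3 lay above WT wound piece 3, and the library ratio of 1.81 ranged from 1.51 to 2.58 as single pieces were left out. Sparc, which encodes a collagen-binding matricellular protein, had 315 CPM in WT intact and 662 in WT wound, 2.1-fold (2.01 to 2.2) with its pieces apart. Tnc, the gene for tenascin-C, had 87.4 and 140 CPM, 1.6-fold, and Postn, the gene for the matricellular protein periostin, had 306 and 456 CPM, 1.49-fold. Both had pieces that did not overlap.

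The small leucine-rich proteoglycans, which bind collagen fibrils and limit their growth, differed among themselves. Bgn, the biglycan gene, had 224, 178 and 247 CPM in the intact pieces and 403, 427 and 406 in the WT wound pieces, 1.93-fold (1.82 to 2.04). Dcn, the decorin gene, had 343, 336 and 563 CPM against 674, 334 and 622, so that WT wound piece 2 lay at the lowest intact level and the library ratio was 1.29. Lum, the lumican gene next to Dcn on chromosome 10, and Ogn, the osteoglycin gene, had ratios of 1.59 and 1.22 and overlapping pieces. In each of Dcn, Lum and Ogn piece 2 was the lowest of the WT wound pieces. Vcan, which encodes the large hyaluronan-binding proteoglycan versican, had 17.4 and 28 CPM, 1.62-fold with its pieces apart.

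Elastic fibre genes held both a wide spread between pieces and the single ratio below 1. Eln, the elastin gene, had 12.1, 26.2 and 57.8 CPM in the intact pieces and 84.3, 59.7 and 47.1 in the WT wound pieces. Its ratio of 1.95 ranged from 1.59 to 3.17 as single pieces were left out. Fbn1, which encodes the microfibril protein fibrillin-1, had a ratio of 1.88 and overlapping pieces. Fbln2, a fibulin gene, had 39.6 and 77 CPM, 1.94-fold with its pieces apart, and Fbln5, another fibulin needed for elastic fibre assembly, had 1.39. Fbln1 (ENSMUSG00000006369; chromosome 15, 85205949 to 85286294), a fibulin that binds fibronectin and elastic fibres, had 224 CPM in WT intact and 214 in WT wound. Its pieces ran from 208 to 232 and from 163 to 304, and the ratio was 0.954 (0.897 to 1.01). Mgp, which encodes matrix Gla protein, an inhibitor of soft tissue calcification, had 272 CPM in WT intact and 697 in WT wound, 2.57-fold (2.45 to 2.69), with pieces of 204 to 376 against 420 to 919.

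**Figure D2:**
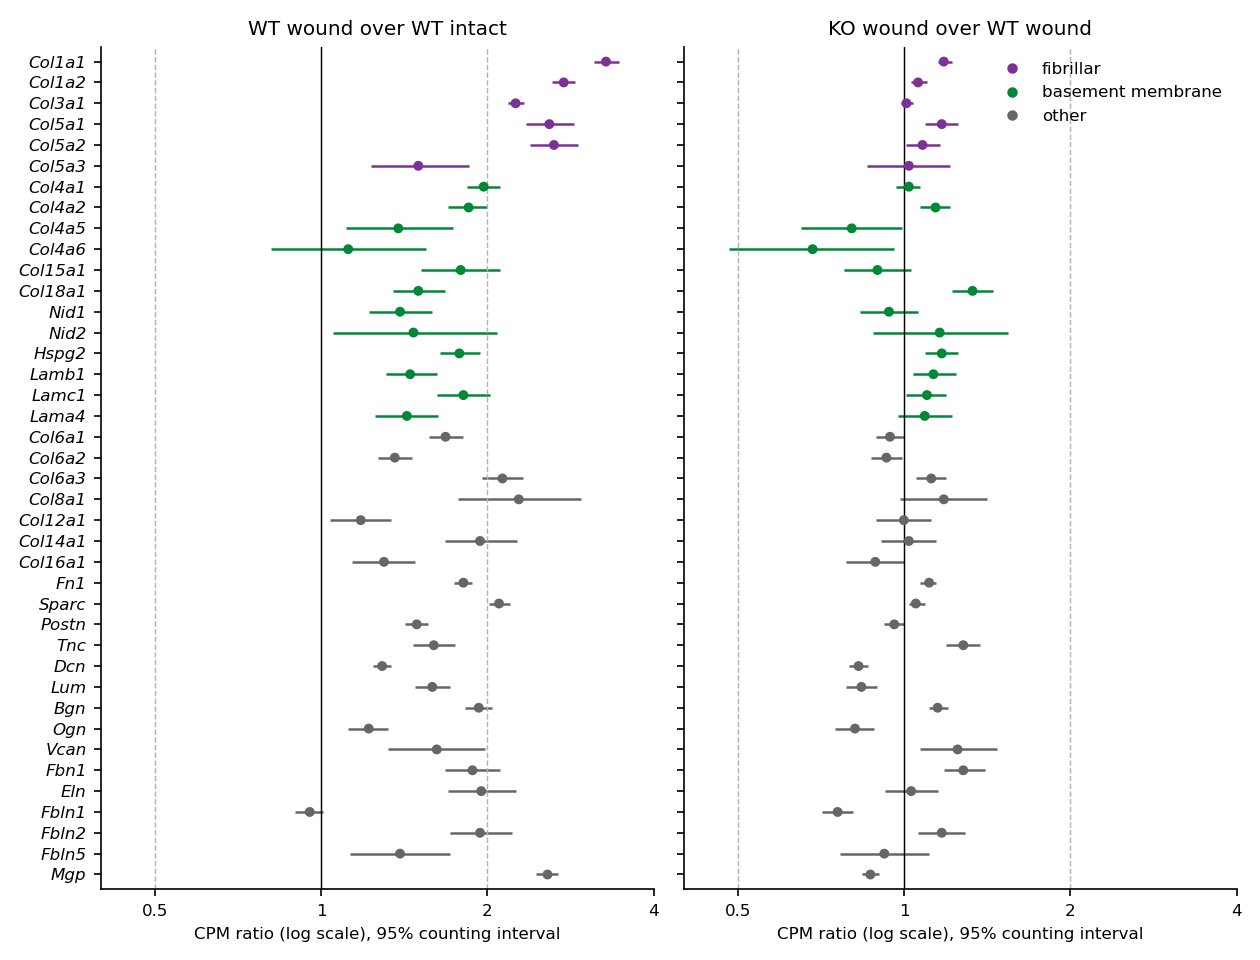
Ratio of CPM for each of the 40 genes on a log axis, WT wound over WT intact and KO wound over WT wound, with 95% counting intervals. The first set runs from 0.954 for Fbln1 to 3.28 for Col1a1, and no gene of the second set reaches 2 or 0.5.

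The place of these RNAs in the colon wall was read by dividing spots into layers. A spot was called epithelium-led or muscle-led where its summed epithelial or smooth muscle markers, each scaled, led the other by at least 2-fold, and mixed otherwise. In WT intact the 40 genes summed to 3221 CPM in the 202 epithelium-led spots, 7056 in the 95 mixed spots and 9473 in the 205 muscle-led spots. The same order held in WT wound, with 5615, 16984 and 20933 CPM, and in KO wound, with 5561, 18449 and 26593. In muscle-led over epithelium-led spots 24 of the 39 genes compared were at least 2-fold higher in WT intact, where 16.2% of all genes were. In WT wound 34 of 40 were, against 16.6%, and in KO wound 33 of 40, against 17.2%. The median ratio was 2.58, 3.3 and 3.99. None of the members compared was at or below 0.5-fold in any of the 3 libraries, where 13.8%, 12.9% and 15.2% of all genes were.

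Mgp had the highest layer ratio of the genes compared in each library, with 70.4 CPM in epithelium-led and 774 in muscle-led spots of WT intact, a ratio of 11, and ratios of 10 and 10.7 in WT wound and KO wound. Fn1 had 185 and 1156 CPM in WT intact, 6.26-fold, and 336 and 2543 in WT wound, 7.57-fold. The collagen IV genes were also higher in the muscle wall, Col4a1 with 88.1, 163 and 271 CPM from epithelium-led through mixed to muscle-led spots of WT intact. Lamb1, with 65, 50.3 and 59.2 CPM across the same layers, was the single gene below equal there, at 0.91. Col14a1, Eln and Fbn1 were higher in the mixed spots of WT intact than in its muscle-led spots, at 89.5, 88.5 and 95.6 against 46.8, 36.1 and 68.2 CPM.

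**Figure D3:**
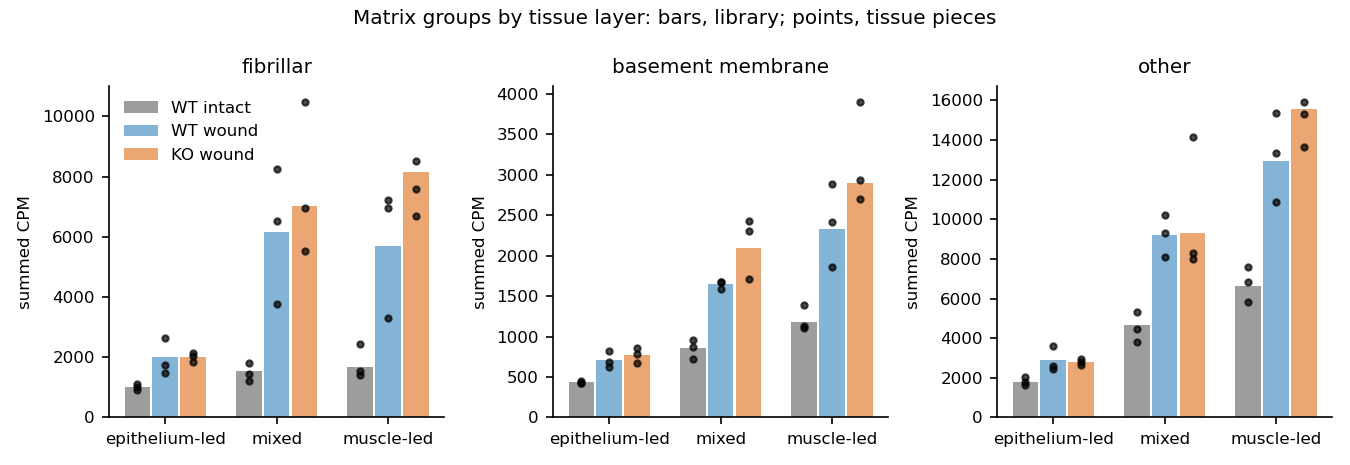
Summed CPM of the fibrillar, basement membrane and other genes by tissue layer, with a bar for each library and points for its 3 tissue pieces, axes starting at 0. The bars rise from epithelium-led through mixed to muscle-led spots except for the fibrillar genes of WT wound, which are highest in mixed spots, and the WT wound bars are above the WT intact bars in every layer.

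Since matrix RNA differed this much by layer and the libraries held different shares of each, WT wound was also compared with WT intact within layers. The median ratio was above 1 in each layer. In epithelium-led spots 7 of 40 genes were at least 2-fold higher, with 3.2% of all genes as background and a median ratio of 1.64. That count rested on single pieces, with 1 of 40 without WT wound piece 1, 13 without WT wound piece 2 and 11 without intact piece 3, and the median ran from 1.42 to 1.82. In mixed spots 21 of 37 were, with 5.64% as background and a median of 2.12, and in muscle-led spots 21 of 38, with 3.8% and a median of 2.17. With each layer given equal weight the count was 15 of 40, against 4.46% of all genes, and the median ratio 1.83. Col1a1 went from 150 to 370 CPM in epithelium-led spots, from 303 to 1710 in mixed spots and from 373 to 1488 in muscle-led spots, ratios of 2.47, 5.65 and 3.99. Mgp was 3.06-fold higher in epithelium-led and mixed spots and 2.79-fold in muscle-led spots. Eln was 3.65-fold higher in muscle-led spots, from 36.1 to 132 CPM. The smooth muscle list was 40612 CPM in muscle-led spots of WT intact and 35023 in those of WT wound; its part in these ratios was not tested.

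The wound itself was located with a 26-gene list of inflammatory and wound-response genes that holds none of the 40. The 10% of spots of each library with the highest level of that list, averaged with their neighbours, were called the core. Spots 1 to 2 steps away were called near, 3 to 5 steps middle, and 6 or more steps, or in a piece without a core, distant. The core was 64 spots in WT wound, 34, 13 and 17 in its pieces, and 57 spots in KO wound, all in pieces 2 and 3. Steps count spots of the array and not lengths measured from a wound margin.

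**Figure D4:**
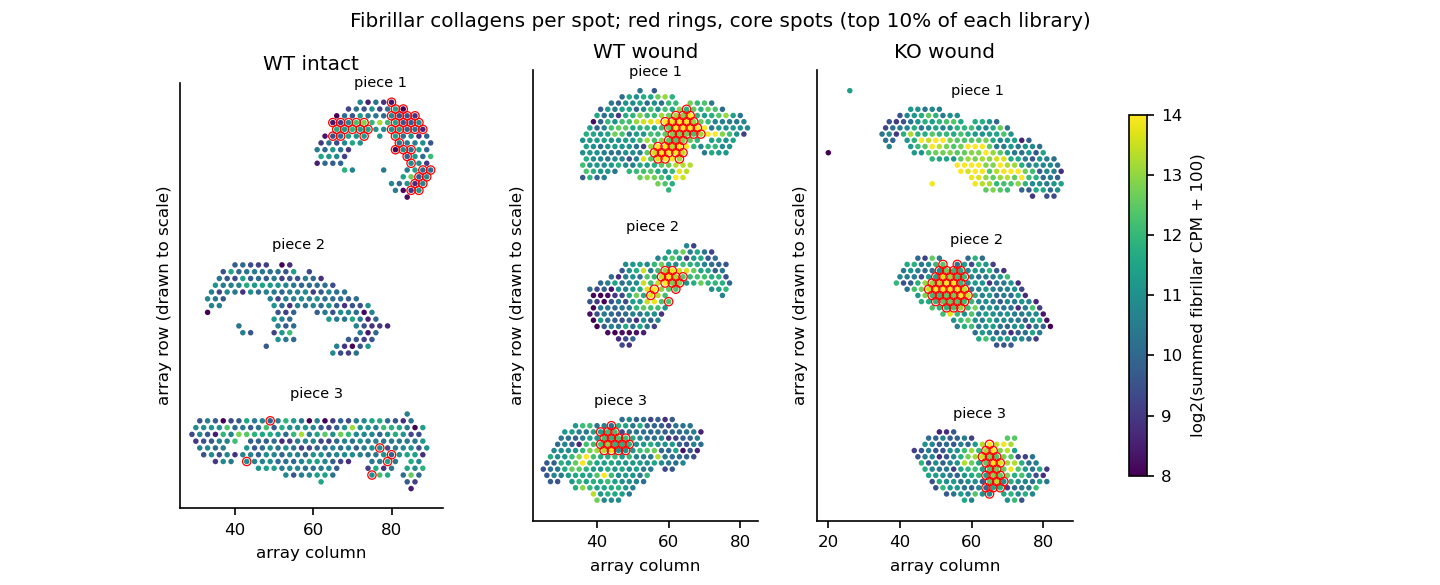
Spots of the 3 libraries at their array column and row, coloured by log2 of the summed CPM of the 6 fibrillar genes plus 100, with red rings around core spots. In WT wound pieces 1 and 2 the brightest spots lie at and around the core, in piece 3 some lie away from it, and KO wound piece 1 has bright spots with no core.

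In WT wound, matrix RNA was concentrated at the core. The 40 genes summed to 25155 CPM in core, 14411 in near, 8849 in middle and 4999 in distant spots, a core over distant ratio of 5.03 (4.94 to 5.13). Of the 39 genes compared, 35 were at least 2-fold higher in core than in distant spots, where 17.5% of all genes were, and the median ratio was 4.23. All 6 fibrillar genes were, with a median of 7.47, as were 9 of 11 basement membrane genes, with 3.57, and 20 of 22 others, with 4.14. Pooled over layers and pieces, the level fell at every step from core to distant for 35 of the 40, against 28.9% of all genes. The exceptions were Col4a5, Col4a6, Lamb1, Fbln1 and Fbln5. A second core was set without the genes of its list that stromal cells also express, such as Timp1 and Serpina3n. By this rule, added after the values were seen, 34 of 39 genes were at least 2-fold higher, against 15.2% of all genes.

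Col1a1 had 2730 CPM in core, 1170 in near, 529 in middle and 262 in distant spots, a ratio of 10.4 (9.72 to 11.2). Col3a1 had 3654, 1990, 1222 and 700 CPM over the same rings, 5.22-fold, and Fn1 had 2421, 1347, 667 and 362, 6.68-fold. These genes kept a gradient through the near and middle rings. Tnc was steeper at the core edge, with 620, 182, 96.8 and 62.4 CPM, 9.93-fold (8.6 to 11.5). Col8a1 had the highest ratio, 114 against 5.18 CPM, 21.9-fold (13.9 to 35.7). Col5a3 at 11.3 came next, and Col14a1 at 9.61 and Eln at 8.82 were close to Tnc.

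Genes with a flatter course included Mgp, with 1228, 1079, 768 and 369 CPM, and Postn, with 856, 568, 473 and 314 CPM and a ratio of 2.72. The fall of Mgp did not hold in each layer or piece. From core to distant it had 238, 320, 246 and 167 CPM in epithelium-led spots and 1606, 1436, 1369 and 1490 in mixed spots. In muscle-led spots it rose, with 1731, 2168, 2321 and 2492. Piece 3 had 556 CPM of it in core and 688 in distant spots. Mgp was not alone in this. Lum had 588 CPM in core and 691 in distant muscle-led spots, and 154 and 203 in piece 3. In epithelium-led and mixed spots Lum was higher in core, at 187 against 66.8 and 651 against 280. Ogn had 68.1 CPM in core and 80.6 in distant epithelium-led spots and 187 and 222 in mixed spots, but 360 and 301 in muscle-led spots. Lamb1 had 139 CPM in core and 76.2 in distant spots, 1.82-fold. Pooled over layers, Fbln1 was highest in the near ring, with 214, 261, 247 and 166 CPM, and Fbln5 likewise, with 27.6, 40.2, 26.8 and 15.6. Within each layer Fbln1 was lower in core than in distant spots. It had 61.3 against 105 CPM in epithelium-led, 235 against 366 in mixed and 303 against 933 in muscle-led spots. Among the basement membrane genes, the paired Col4a1 and Col4a2 had core over distant ratios of 4.81 and 5.66, and the X-linked pair Col4a5 and Col4a6 had 1.25 and 0.766, the latter from 6.62 and 8.64 CPM with an interval of 0.265 to 1.82.

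**Figure D5:**
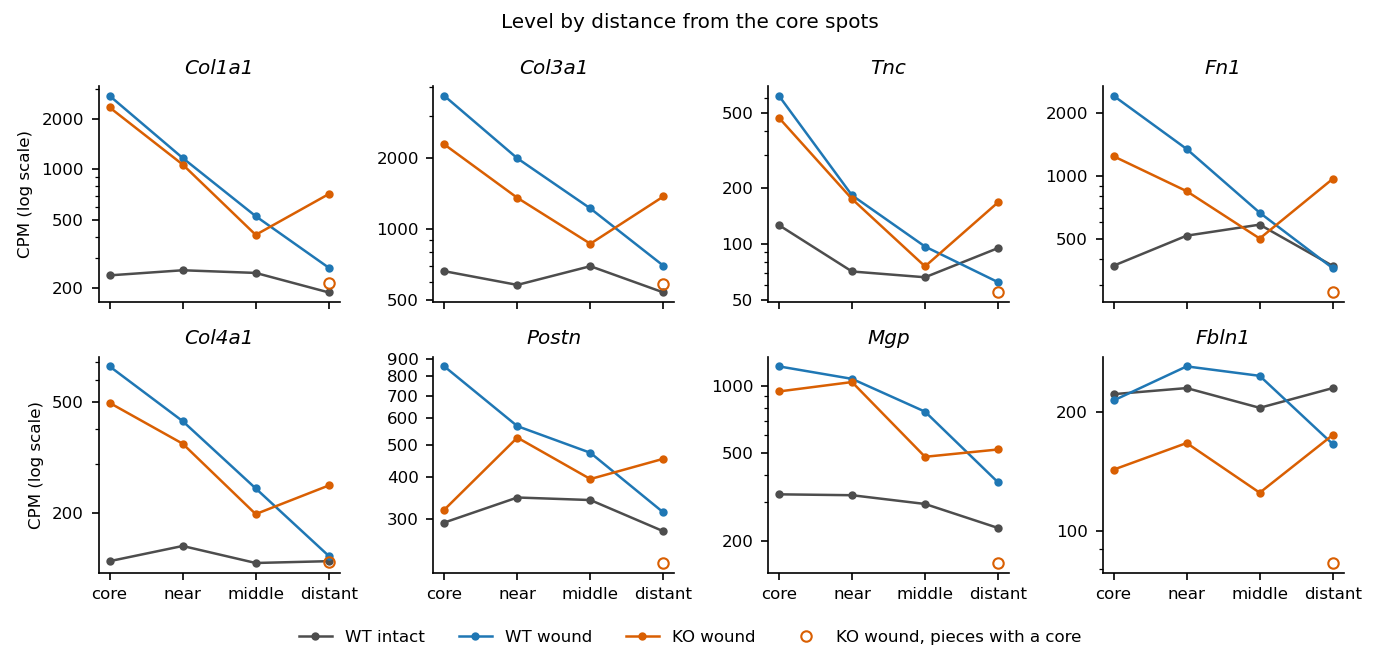
Level in CPM (log axis) of 8 of the genes in core, near, middle and distant spots, with a line for each library and an open circle for KO wound distant spots of the pieces that hold a core. In WT wound, pooled over layers, Col1a1 falls from 2730 to 262 CPM and Fbln1 is highest in the near ring.

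The 3 pieces of WT wound differed in how strongly matrix RNA gathered at the core. The summed ratio of core over distant was 4.61 in piece 1, 13.8 in piece 2 and 2.13 in piece 3. In those pieces 35 of 38, 32 of 32 and 20 of 33 genes compared were at least 2-fold higher, with 13.4%, 19.5% and 7.97% of all genes as background. Col1a1 had 3805, 3212 and 904 CPM in the 3 cores and 366, 128 and 272 CPM in the distant spots. Piece 3 was the lowest in its core, and every core lay above every distant value. Markers moved with the core too. The smooth muscle list was 18178 CPM in core and 3771 in distant spots, the fibroblast list 3767 and 2354, the macrophage list 3134 and 929, and the epithelial list 11067 and 21809. Within layers, 28 of 37 genes were at least 2-fold higher at the core in epithelium-led spots (background 16.5%), 17 of 26 in mixed spots (8.72%) and 19 of 35 in muscle-led spots (7.07%).

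The same selection in WT intact, which has no wound, picked 50 spots with 201 UMIs of the list, 135 of them from Ly6c2, a monocyte and endothelial surface protein gene, and 44 of the spots lay in piece 1. There 0 of 37 genes were at least 2-fold higher in core, where 0.752% of all genes were, and Col5a3 at 0.421 and Eln at 0.363 were lower, where 4.75% were. The 40 genes summed to 5065 CPM in these core spots and 4581 in distant spots, a median ratio of 1.07. The direction of the 2 lower genes did not hold under other rules for the core, as given under the dependence on processing. Pooled over layers, the distant spots of both WT libraries were close. Of 39 genes, 0 were at least 2-fold higher in the distant spots of WT wound than in those of WT intact (1.46% of all genes) and Col5a3 was lower at 0.445 (7.39%), with a median ratio of 1.07. The layers differed, with 176 epithelium-led and 26 muscle-led of 221 spots in WT wound and 101 and 82 of 223 in WT intact. By layer, the distant spots of WT wound summed to 3900 CPM (epithelium-led), 10791 (mixed) and 16850 (muscle-led). All WT intact spots of these layers had 3221, 7056 and 9473. The part of layer in the pooled ratio was not tested.

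In KO wound, core over distant gave 13 of 39 genes at least 2-fold higher, where 11.7% of all genes were, and a median ratio of 1.62. Piece 1 of this library held no core spot, counted wholly as distant, and had the highest matrix sum of the pieces, 12616 CPM, against 7733 and 8289. The core was set within each library. In KO piece 1 the core list was at 394 CPM, below KO pieces 2 and 3 (1259 and 899) but above the WT wound pieces (310, 292 and 293). Distant spots had 309 CPM of it in KO wound and 92.7 in WT wound, so core over distant is not like for like between them. With distant spots taken only from pieces 2 and 3, a rule added after the values were seen, 27 of 36 genes were at least 2-fold higher, against 20% of all genes, with a median ratio of 3.97. The sums were then 17238 CPM in core and 4003 in distant spots, 4.31-fold. By the same rule the smooth muscle list was 9236 CPM in core and 660 in distant spots, all 10 of its genes at least 2-fold higher with a median ratio of 15. The pericyte list was 371 and 56.6 CPM, the macrophage list 3301 and 841, the fibroblast list 2246 and 2539 and the epithelial list 13224 and 26245. The part of these list genes in the ratios was not tested. Col1a1 had 2330 CPM in core and 213 in these distant spots, 11-fold (9.83 to 12.2), but 980 in piece 1. Fbn1 at 9.14 and Mgp at 5.91 were also high by this rule, whose distant set held no muscle-led spot. Within epithelium-led spots, with piece 1 among the distant, Mgp was lowest at the core. It had 74 CPM in core, 213 in near, 270 in middle and 193 in distant spots. In muscle-led spots it had 3357 CPM in core and 1655 in distant spots, the latter all in piece 1. Col8a1 had 79.8 CPM in core and 1.06 in distant spots, a ratio of 75.4 on few UMIs (20.1 to 636).

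Layers were also compared one by one, with piece 1 counted as distant again. In epithelium-led spots 23 of 39 genes were at least 2-fold higher and 4 lower, where 16.6% and 10.3% of all genes were. In mixed spots 1 of 27 was higher and 5 lower (5.49% and 4.6%), and in muscle-led spots 2 of 37 were higher and 4 lower (4.14% and 7.05%). The 40 genes summed to 11840 CPM in core and 4791 in distant epithelium-led spots, and to 27492 and 27160 in muscle-led spots. All 87 distant muscle-led spots lay in piece 1, which held no core spot.

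KO core was set against WT wound core to ask whether the matrix at the wound differed by genotype label. The KO core had lower matrix sums, 17238 against 25155 CPM, a ratio of 0.685 (0.671 to 0.7). Postn at 0.374, Eln at 0.345, Col14a1 at 0.411, Col6a1 at 0.448, Ogn at 0.457 and Col6a2 at 0.477 were at or below 0.5-fold, 6 of 36 genes where 2.57% of all genes were. None of the 36 was at least 2-fold higher (2.91%), and Vcan had the highest ratio, 1.39 (0.997 to 1.94). Postn had 320 CPM in KO core and 856 in WT core, and Fn1 had 1243 and 2421, 0.513-fold. For the sum the pieces overlapped: the 40 genes summed to 29339, 32148 and 12905 CPM in the WT cores and to 20116 and 14180 in the KO cores. Of the genes at or below 0.5-fold, Col14a1 and Ogn overlapped too. Postn, with 754, 952 and 886 CPM in the WT cores and 357 and 282 in the KO cores, did not, nor did Eln, Col6a1 and Col6a2. The cores also differed in make-up. The list that set them had 4008 UMIs in KO core and 1131 in WT core, led in KO by Cxcl5, a neutrophil-attracting chemokine gene (616), and the neutrophil gene S100a9 (593), and in WT by the protease inhibitor genes Timp1 (259) and Serpina3n (208). Of the 57 KO core spots 28 were epithelium-led, and of the 64 WT core spots 15 were, and the smooth muscle list was 9236 CPM in KO core against 18178 in WT core. Within layers the core sums lay closer, at 11840 CPM in KO against 12491 in WT for epithelium-led spots, 25236 against 33091 for mixed spots and 27492 against 30637 for muscle-led spots. Postn stayed lower in KO core, at 311 against 388, 497 against 1025 and 253 against 1096 CPM over the same layers. The part of the list genes in the ratios was not tested.

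Over whole libraries, KO wound and WT wound differed little in these genes. The 40 genes summed to 9866 CPM in KO wound and 9584 in WT wound, a ratio of 1.03 (1.02 to 1.04), with pieces of 12616, 7733 and 8289 against 11235, 8758 and 8505. None of the 40 was at least 2-fold higher, where 0.73% of all genes were, and none was at or below 0.5-fold, where 0.746% were. None passed 1.5-fold either. The ratio was above 1 for 25 of the 40 and for 58.9% of all genes, and its median was 1.04. For none of the 40 did the KO pieces lie wholly above or below the WT wound pieces, orders that 5.79% and 2.24% of all genes had. Without KO piece 1 the median log2 ratio was -0.19.

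The genes farthest from equal in KO wound were of different kinds. Col18a1 had 118 CPM in KO wound and 88.6 in WT wound, 1.33-fold (1.22 to 1.45), with pieces of 89.4 to 149 against 80.4 to 98.7. Tnc had 179 and 140 CPM, 1.28-fold (1.19 to 1.37), and Fbn1 had 120 and 93.8, also 1.28-fold. In each the pieces overlapped, and the ratios stayed above 1 as single pieces were left out, from 1.18 to 1.47 for Col18a1, 1.05 to 1.46 for Tnc and 1.07 to 1.63 for Fbn1. On the low side, Col4a6 had 6.16 and 9.02 CPM, 0.683-fold (0.483 to 0.957), and its neighbour Col4a5 had 16.6 and 20.6, 0.804-fold (0.65 to 0.992). Fbln1 had 162 and 214 CPM, 0.758-fold (0.709 to 0.809), with pieces of 224, 96.6 and 143 against 193, 163 and 304. The proteoglycan genes Ogn at 0.815, Dcn at 0.827 and Lum at 0.837 were low as well, and KO pieces 2 and 3 had 314 and 304 CPM of Dcn where piece 1 had 647. Among the fibrillar genes Col1a1 had 843 and 712 CPM, 1.18-fold (1.15 to 1.22), and Col3a1 1358 and 1342, 1.01-fold.

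Within layers, none of the 40 passed 2-fold between KO wound and WT wound in epithelium-led spots, where 0.571% of all genes were higher and 0.246% lower, and the median ratio was 1.01. In mixed spots Tnc at 2.31 and Vcan at 2.23 were higher, 2 of 37 where 2.17% of all genes were. There 1.54% of all genes were at or below 0.5-fold. Tnc had 328 CPM in the 59 mixed spots of KO wound against 142 in WT wound, and Vcan had 92 against 41.2. Dropping KO piece 2 took this count to 0. Dropping WT wound piece 3 did so too, with 1 gene then at or below 0.5-fold. Dropping KO piece 1, which left 48 mixed KO spots, kept 2 genes higher and put 4 at or below 0.5-fold. Dropping any other single piece gave 2 or 3 higher and 0 lower. Shares of all genes with pieces left out are not given here, so these counts have no background. In the 126 muscle-led spots of KO wound, 87 of which lay in piece 1, none of 38 passed 2-fold (2.18% higher and 1.77% lower over all genes) and the median ratio was 1.28. It was 1.12 when KO piece 1 was left out and 1.08 when WT wound piece 3 was. Fbn1 at 1.83, Col14a1 at 1.57 and Tnc at 1.54 had the highest ratios there. With layers weighted equally 1 gene, Col4a6 at 0.498, was at or below 0.5-fold, where 1.28% of all genes were; it rested on 1.88 CPM in the mixed KO spots.

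Genes that make or bind this matrix were followed in 3 further lists. Of 22 genes compared for collagen folding, modification and processing, 1 was at least 2-fold higher after wounding in WT, near the 3.29% of all genes, with a median ratio of 1.51. That gene was P4ha2, a subunit of the enzyme that hydroxylates collagen prolines, at 2.33. Serpinh1, the collagen chaperone gene, had 1.67, and Fkbp10, the gene of another procollagen-folding protein, 1.93. The same list also held Sparcl1, a gene related to Sparc and not to those steps, at 0.801. Of 25 integrin and other matrix receptor genes 1 was higher, also near that share, with a median of 1.27. Of 47 other matrix genes compared 4 were higher and 1 lower, where 3.08% of all genes were lower, with a median of 1.33. Lama3 at 3.35, a laminin alpha chain gene of epithelia, and Ccn1 at 2.79, a matricellular protein gene, were among the 4. Core over distant in WT wound gave 18 of 20, 12 of 21 and 27 of 33 genes at least 2-fold higher, against 17.5% of all genes, among them Serpinh1 at 7.14, Plod2, a collagen lysyl hydroxylase gene, at 6.11, and Itga5, the fibronectin receptor alpha chain gene, at 7.42. In KO wound over WT wound the median ratio was 1.02 for each of the 3 lists. At least 2-fold higher were 0 of 22, 0 of 25 and 2 of 47 genes, where 0.73% of all genes were. Thbs1, the thrombospondin-1 gene, at 2.3 was 1 of the 2.

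Spot by spot, the fibrillar genes varied together. As a description, Pearson's r between a gene and the sum of the other fibrillar genes, on log2(CPM + 100), was 0.56 for Col1a1 in the 502 WT intact spots, 0.86 in the 640 WT wound spots and 0.83 in the 572 KO wound spots. Spots share their library and differ in depth, so these values carry that too. Sparc had 0.55, 0.84 and 0.79, near to the fibrillar genes. Tnc had 0.18, 0.40 and 0.53, and Lamb1 had 0.18, 0.34 and 0.23. In this measure Sparc followed the fibrillar sum closely in both wound libraries and Lamb1 did so weakly in all 3.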

How the data were processed

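Visium libraries of intact and wounded distal colon were analysed as deposited. The matrices hold raw UMI counts per gene and spot, made with Space Ranger 1.2.1 per the file headers, and the genome build was mm10 per the submitters' processing notes; the aligner and annotation release are not stated in the labels used here. UMI counts were summed over spots and divided by the total UMIs to give CPM. Ratios of CPM have exact conditional binomial (Clopper-Pearson) intervals at 95%, which cover counting error only. Genes with at least 50 UMIs over both sides entered a comparison, and ratios from 2 upwards or from 0.5 downwards were counted. With 1 library per group no p-value was computed.

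Pieces were connected groups of at least 20 spots. Layers used 12 epithelial and 10 smooth muscle genes, each list scaled to its mean share, with a pseudocount of 0.01 and a lead of 2-fold. All 40 genes are named; up to 3 genes in each direction of a further list were eligible. The members, gene lists, thresholds and comparisons were chosen with earlier results of these data known. The libraries totalled 8180099 (WT intact), 11306771 (WT wound) and 8930574 (KO wound) UMIs, and 3 UMIs equal 0.367, 0.265 and 0.336 CPM. Ratios were tested on simulated counts. Gene spans and promoters came from RefSeq tables of GRCm38. Tools were Python 3.11.15, numpy 2.4.6, scipy 1.17.1, pandas 2.3.3 and matplotlib 3.10.9. Histology images were not used. Alternatives changed the scaling, minimum UMIs, pseudocount, fold, spot weights, layer rule, core rule and list, and left out single pieces.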

Additional observations from a re-analysis of the deposited data

Results flagged for a closer look

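Several genes had ratios on opposite sides of 1 in different tissue, each with counting intervals and no test of the difference. Col12a1, a fibril-associated collagen gene, was 1.44-fold in WT wound over WT intact in epithelium-led spots and 0.786-fold in muscle-led spots. The KO wound over WT wound ratio was below 1 in epithelium-led spots and above 1 in muscle-led spots for Col3a1 (0.897 and 1.46), Col6a1 (0.864 and 1.25), Col6a2 (0.884 and 1.2) and Postn (0.867 and 1.31), with 87 of the 126 muscle-led KO spots in piece 1. Pooled over layers, core over distant was 2.72 in WT wound and 0.706 in KO wound for Postn, and 1.29 and 0.814 for Fbln1. With KO distant spots taken only from the pieces that hold a core, the KO ratios were 1.45 and 1.72. Within each layer Fbln1 was lower in core than in distant spots in WT wound and in KO wound. From epithelium-led through mixed to muscle-led spots it had 61.3 against 105, 235 against 366 and 303 against 933 CPM in WT wound. In KO wound, with piece 1 among the distant, it had 41.7 against 91.8, 117 against 370 and 425 against 482. None of these differences was tested.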

How the results depend on the processing

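The count of 9 genes at least 2-fold higher in WT wound was 26 at 1.5-fold (9.18% of all genes) and 6 to 18 with single pieces left out. KO wound over WT wound gave 0 under each alternative run and with each piece left out. Muscle-led over epithelium-led counts were 24 to 26, 30 to 34 and 32 to 34 for WT intact and the WT and KO wounds as pieces were left out. Within layers, the WT wound count of 15 became 11 to 20, and the KO count of 1 was 0 without a mixed layer and 0 to 1 with pieces left out. In the WT intact core, 2 genes were lower, but 9 were higher with the top 20% of spots (6.27% of all genes), 7 higher with a core in each piece (6.8%), 15 higher with the score of the spot alone (9.99%), 19 lower with a neutrophil list (15.9%), 0 with that list without Ly6g, and 0 to 19 with pieces left out (without piece 1, 15 higher and 4 lower, 12.6% and 35.7% of all genes). In the WT wound core the count of 35 was 32 to 36 with pieces left out. Within layers 26 were higher and 1 lower (10.3% and 4.07% of all genes). With the neutrophil list, where Ly6g gave 1882 of 1883 UMIs, it turned to 38 lower (25.9%). Without Ly6g 36 were higher (16.9%). The KO core count of 13 (11.7%) was 30 with the top 20% of spots (23.2%), 30 with a core in each piece (20.2%), 29 with the spot alone (20.8%), 5 within layers (8.72%), 27 with distant spots only of pieces with a core (20%), 13 lower with the neutrophil list (9.74%), and 10 to 27 with pieces left out. The cause of these shifts was not tested. The list without stromal genes gave 34 and 14 of 39 higher in the WT and KO wounds, where 15.2% and 11.4% of all genes were. It, the neutrophil list without Ly6g and the distant rule were added after the data were seen. No paired analysis was possible because each group had 1 library. Genes with few UMIs, such as Col4a6 and Nid2, are limited by depth.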
